A study of Mus musculus with 6 samples.

Results

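Glutathione transferases of the mu, theta, omega and zeta classes were measured in mouse tongue after treatment with 4-nitroquinoline 1-oxide (4NQO), a carcinogen that damages DNA and also forms conjugates with glutathione. The 10 genes were the mu class genes Gstm1 to Gstm7 and 1 gene each of the theta, omega and zeta classes, Gstt1, Gsto1 and Gstz1. They were chosen with earlier results of these data known. Another 4 measured genes of the theta and omega classes are given apart and do not enter the counts and medians of the 10. All 10 of 10 had at least 1 probe set annotated to that gene alone, 16 probe sets in total, among 18193 genes tested in the series. C57BL/6J mice, an inbred strain, drank 4NQO at 100 μg/ml over a period of 8 weeks (3 tongues). Untreated mice of the same strain were the controls (3 tongues), and each tongue of both groups had 1 Affymetrix array. Neither group carried an engineered allele. All values are log2 signals of whole tongue RNA, an average over epithelium, muscle, connective tissue, vessels and immune cells, and where a gene had several probe sets the one with the highest mean over the 6 arrays was its main probe set.

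Glutathione transferases join the thiol of glutathione to reactive, electron-poor compounds, which are then pumped out of the cell and broken down to mercapturates. Cytosolic transferases are dimers, grouped into classes by sequence. Mu class genes lie side by side in one cluster and encode closely related enzymes, theta enzymes act on small halogenated compounds, omega enzymes carry a cysteine in the active site and reduce disulfides and dehydroascorbate, and the zeta enzyme isomerizes maleylacetoacetate in the breakdown of tyrosine. Transcription of many transferases is known to be raised by NRF2, the factor that binds antioxidant response elements (ARE) in DNA, and by receptors for foreign compounds that bind other elements.

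Sequences at the gene starts are shown first, because paralogous mu class transcripts are alike and because the promoters can be set beside the values. On chromosome 3 of GRCm38.p6 the 7 mu class genes span 149.3 kb. In 4 of them a RefSeq promoter window holds the whole 30-base stretch that ends just inside the coding sequence (a window of Gstm6 begins within it). On the minus strand it reads as follows, with the start codon in capitals.
Gstm1: gagaagaccacagcaccagcaccATGccta
Gstm2: ggtctgctctggacaccagcactATGccta
Gstm3: gagaagaccacagcatcagcgccATGccta
Gstm7: ctgtccgttcagacctcggcaccATGccca
Gstm1 and Gstm3 shared 28 of these 30 bases, against 19 for Gstm1 and Gstm2 and 14 for Gstm1 and Gstm7. Probe sequences were not used here, so how far a probe set of one mu class gene also binds RNA of another was not tested. In the platform's naming, the suffix _x_at marks probe sets with probes that can match other genes, _s_at those that match several transcripts of like genes, and _a_at those that match several transcripts of 1 gene.

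The promoter windows (250 bases before and 50 bases after the annotated start, RefSeq, GRCm38.p6) of Gsto1, Gstm1 and Gstm5 are printed, as the first 2 genes had higher signals in 4NQO-treated tongue and Gstm5 did not. Capitals mark matches, on either strand, to the ARE core TGACNNNGC, the AP-1 element TGACTCA and the core GCGTG of the xenobiotic response element bound by the aryl hydrocarbon receptor. In Gstm5 the xenobiotic element lies on the minus strand and overlaps the AP-1 and ARE matches.
Gsto1, chr19:47854723-47855022, plus strand: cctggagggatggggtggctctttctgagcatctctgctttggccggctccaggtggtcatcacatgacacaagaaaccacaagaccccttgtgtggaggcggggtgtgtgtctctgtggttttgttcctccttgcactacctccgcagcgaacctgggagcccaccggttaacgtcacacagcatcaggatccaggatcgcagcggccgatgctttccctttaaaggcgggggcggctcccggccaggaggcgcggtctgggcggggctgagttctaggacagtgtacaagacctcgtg
Gstm1, chr3:108017769-108018068, minus strand: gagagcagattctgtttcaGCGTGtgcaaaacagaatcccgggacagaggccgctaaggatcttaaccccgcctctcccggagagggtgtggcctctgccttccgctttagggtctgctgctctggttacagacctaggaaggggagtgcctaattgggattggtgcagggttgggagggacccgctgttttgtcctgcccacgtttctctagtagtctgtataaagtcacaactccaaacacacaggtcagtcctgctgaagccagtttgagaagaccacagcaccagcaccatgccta
Gstm5, chr3:107895604-107895903, plus strand: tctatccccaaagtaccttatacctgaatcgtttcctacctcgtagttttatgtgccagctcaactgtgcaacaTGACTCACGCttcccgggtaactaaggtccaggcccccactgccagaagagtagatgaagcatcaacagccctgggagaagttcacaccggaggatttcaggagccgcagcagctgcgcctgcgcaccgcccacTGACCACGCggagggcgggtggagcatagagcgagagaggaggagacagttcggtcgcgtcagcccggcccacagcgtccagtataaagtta
Of 16 windows of the 10 genes, 2 held the ARE core (Gstm5, 42 bases upstream of the start, and a window of Gstm7, 129 bases upstream), against 12.4% of 32851 windows of all genes. The AP-1 element was found in Gstm5 alone among the 10 genes, against 5.2% of all windows. The xenobiotic element core occurred in both windows of Gstm1, which overlap and hold the same site, and in Gstm5, against 32.4% of all windows. The single window of Gsto1 held none of these letters. A match is a description of the sequence, and more distant elements were not searched.

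After 8 weeks of 4NQO, Gsto1, Gstm1 and Gstm6 had higher signals in all 3 treated tongues than in any control tongue, and the other 7 genes had log2 differences between -0.22 and 0.26. None of the 10 genes passed limma's moderated test at an adjusted p under 0.05 in either direction; of all genes 0.126% passed with higher and 0.0055% with lower signals. Before adjustment, at a p under 0.05 from limma, 3 of the 10 were higher (Gsto1, Gstm1 and Gstm6), against 6.68% of all genes, and none was lower, against 3.74%. Groups did not overlap for 4 genes, all with higher values in 4NQO-treated tongue (those 3 and Gstm7), against 9.59% of all genes in this direction, and for none with lower values, against 7.18%. By SAM, the test of the study's methods, none of the 10 was called higher, against 0.456% of all genes, and none lower, against 0% of all genes. SAM was re-implemented here on 1 probe set per gene, so its calls are not those of the study. The median log2 fold change of the 10 genes was 0.12, against -0.01 over all genes. Leaving out 1 array moved it to 0.022 without control 2, 0.065 without 4NQO 2, 0.18 without control 3, 0.23 without 4NQO 1 and 0.26 without control 1. In whole tongue, more cells of a type and more RNA per cell cannot be told apart.

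**Figure D1:**
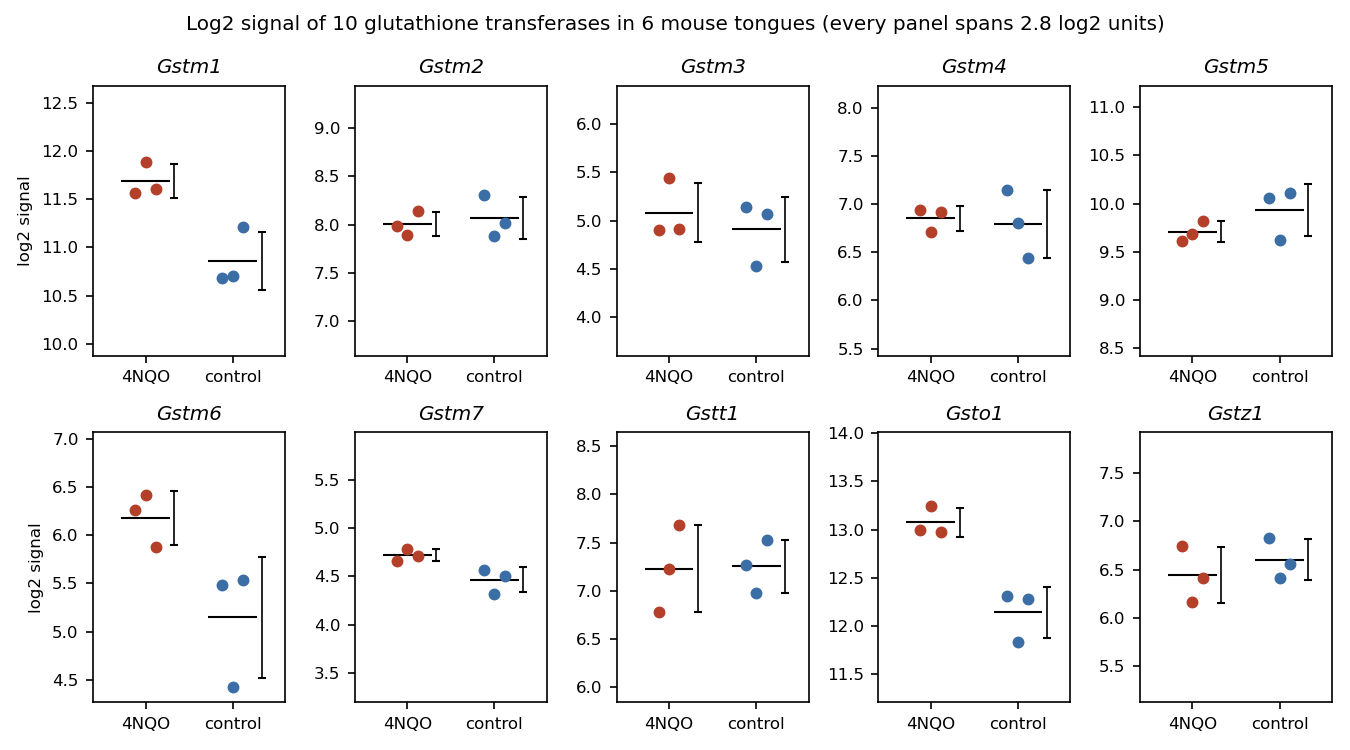
Log2 signal (vertical axes, each spanning the same range) of the 10 transferases by their main probe sets, with 1 point for each of 3 4NQO-treated and 3 control tongues, horizontal bars for means and error bars for SD. The 4NQO-treated tongues lie above all control tongues for Gsto1, Gstm1, Gstm6 and Gstm7 and overlap them for the other 6 genes.

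Gsto1, the omega class thioltransferase, had log2 signals of 13.00, 13.25 and 12.98 in the 4NQO-treated tongues, against 12.31, 11.83 and 12.28 in the control tongues. Every treated tongue stood above every control tongue, and the gap between the groups was wider than the spread within either. The mean was 13.07 ± 0.15 in 4NQO-treated and 12.14 ± 0.27 in control tongue (SD, n = 3 each), a log2 fold change of 0.93 (standard error 0.15, 95% confidence interval 0.59 to 1.28) or 1.91-fold. By p it was number 66 of 18193 genes, and its adjusted p was 0.0703 from limma, short of the threshold. A second probe set of Gsto1, 1456036_x_at, is of the kind with probes that can match other genes. It gave 9.38, 9.94 and 9.08 in 4NQO-treated tongue, against 7.88, 7.28 and 8.16 in control tongue. On the log2 scale the difference was 1.69 with a standard error of 0.28, or 3.23-fold, and limma over all single-gene probe sets gave an adjusted p of 0.0940. The groups were again apart, and the difference was larger than with the main probe set. Within arrays the log2 signal of the second minus that of the main probe set was higher by 0.76 in the 4NQO-treated tongues, with no overlap between groups (two-sided exact permutation p = 0.1, the smallest that 3 against 3 arrays allow). Both probe sets of Gsto1 gave the same direction. With 3 against 3 arrays the exact test cannot give a p below 0.1, so it does not decide whether the sizes differ. The larger difference with the second probe set is therefore only a description.

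Gstm1, a mu class transferase that in mouse also binds the stress kinase ASK1, had log2 signals of 11.56, 11.89 and 11.61 in 4NQO-treated tongue, against 10.68, 10.70 and 11.21 in control tongue. These are from its main probe set, 1416416_x_at, of the kind with probes that can match other genes. The treated tongues lay above all controls, with control 3 the closest to them. The log2 fold change was 0.82 (standard error 0.17, 95% confidence interval 0.43 to 1.22), or 1.77-fold, and the adjusted p was 0.141 from limma. Each of its 3 other probe sets was also higher in all treated than in all control tongues, with log2 fold changes of 0.85 for 1448330_at, 0.79 for 1425627_x_at and 0.51 for 1425626_at (adjusted p between 0.204 and 0.443 from limma). The last 2 of these were above the array median on 4 and 2 of 6 arrays only.

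Gstm6, a mu class gene with 1 probe set (1422072_a_at), had log2 signals of 6.26, 6.42 and 5.87 in 4NQO-treated tongue, against 5.49, 4.42 and 5.54 in control tongue. The groups did not overlap, and control 2 lay more than 1 log2 unit under the other controls and below its array's median of 4.60. The log2 fold change was 1.03 (standard error 0.31, 95% confidence interval 0.31 to 1.76), with an adjusted p of 0.307 from limma. Without control 2 it was 0.67. Gstm6 is the mu class gene with the widest interval, and no linear fold is given because the signal of control 2 lay below its array median.

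The other mu class genes did not pass the test either, and their 95% confidence intervals are for the signal of the main probe set. Gstm7 had log2 signals of 4.66, 4.78 and 4.71 in 4NQO-treated tongue, against 4.57, 4.32 and 4.50 in control tongue. The groups did not overlap, but the difference of 0.26 was small (95% confidence interval -0.08 to 0.59, adjusted p = 0.577 from limma), all 3 control values were below the array medians, and the second probe set gave 0.08 with overlapping groups. Gstm5 had 9.62, 9.69 and 9.82 in 4NQO-treated tongue, against 10.06, 9.62 and 10.11 in control tongue, with a log2 fold change of -0.22 (95% confidence interval -0.59 to 0.15). Gstm2 had 7.99, 7.89 and 8.14 in 4NQO-treated tongue, against 8.31, 7.88 and 8.02 in control tongue, and its log2 fold change was -0.06 (95% confidence interval -0.43 to 0.31). For Gstm5 and Gstm2 the intervals leave out a rise of 1 log2 unit or more. Gstm4 gave 0.06 (95% confidence interval -0.41 to 0.53), with control tongues spread from 6.44 to 7.14. Gstm3 gave 0.17 (95% confidence interval -0.36 to 0.71) by its probe set of the _s_at kind. Its other probe set, 1427473_at, gave 0.33 with groups apart, at signals below the array median on all 6 arrays.

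**Figure D2:**
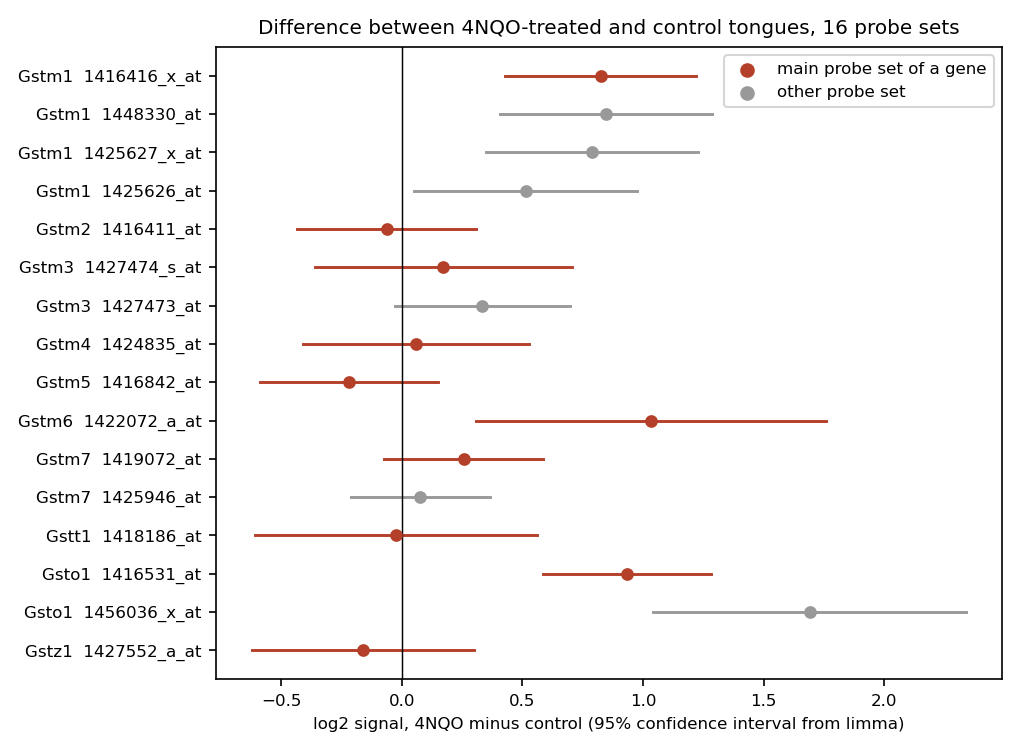
Log2 signal of 4NQO-treated minus control tongue (horizontal axis) for all 16 probe sets of the 10 genes, with 95% confidence intervals from limma, red for main and grey for other probe sets. All 4 probe sets of Gstm1, both of Gsto1 and that of Gstm6 have intervals above 0, and the other 9 intervals include 0.

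The unequal differences within the mu class can also be read within each array. The log2 signal of Gstm1 minus that of Gstm5 was higher by 1.04 in 4NQO-treated than in control tongue, with no overlap between the groups. For Gstm1 minus Gstm2 it was higher by 0.89, also without overlap, and for Gstm1 minus Gstm4 by 0.76 with overlapping groups. These differences use the main probe set of Gstm1, of the _x_at kind. Gstm1 was taken for them because of its own higher signal, so they are a description and no test is given. The same is not given for Gstm3, Gstm6 and Gstm7, which lay below the array median on at least 1 array.

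Along the chromosome Gstm6 and Gstm1 were not adjacent. In map order the cluster runs Gstm5, Gstm7, Gstm6, Gstm3, Gstm2, Gstm1 and Gstm4, and Gstm3 and Gstm2, between Gstm6 and Gstm1, gave the small differences described above. For 8 genes that flank the cluster, log2 fold changes lay between -0.23 (Gpr61) and 0.34 (Gnai3, a G protein subunit), none with an unadjusted p under 0.05 from limma. Ampd2, an AMP deaminase next to Gstm4, gave 0.23, Gnat2, a transducin subunit of cones, 0.28 and Gm12500 -0.05. On the other side Eps8l3, next to Gstm5, gave -0.03, Csf1, the macrophage colony-stimulating factor, 0.10 and Ahcyl1 0.13.

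**Figure D3:**
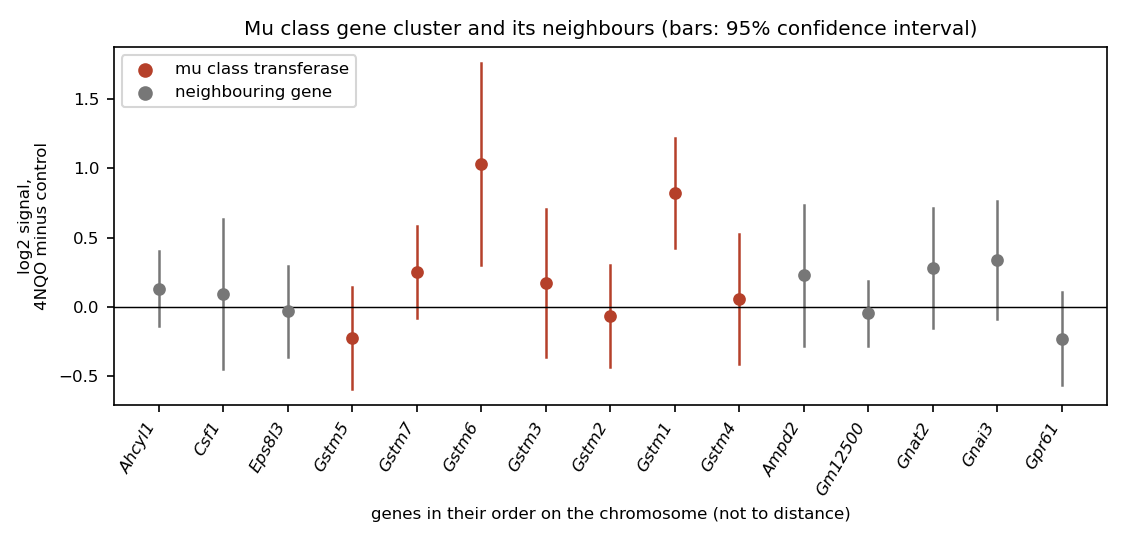
Log2 signal of 4NQO-treated minus control tongue (vertical axis, bars for 95% confidence intervals) for the 7 mu class genes in red and their neighbours in grey, in map order. Gstm6 at 1.03 and Gstm1 at 0.82 stand above the other genes shown, which lie between -0.23 and 0.34.

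Gstt1, the theta class enzyme, had log2 signals of 6.78, 7.23 and 7.68 in 4NQO-treated tongue, against 7.27, 6.97 and 7.52 in control tongue. The treated tongues spread more widely than the controls and covered them, and the log2 fold change was -0.02 (standard error 0.25, 95% confidence interval -0.61 to 0.56). Gstz1, the maleylacetoacetate isomerase, had 6.74, 6.17 and 6.42 in 4NQO-treated tongue, against 6.83, 6.42 and 6.56 in control tongue, also with overlap. Its log2 fold change was -0.16 (95% confidence interval -0.62 to 0.30). The remaining genes of the theta and omega classes gave values as small: Gstt2 -0.02, Gstt3 0.02, Gstt4 -0.06 and Gsto2 -0.07, with Gstt4 and Gsto2 below the array median on all arrays. The difference at Gsto1 was thus not seen at Gsto2, the other omega gene, whose signal may be too dim to show one. Of 4 measured genes of tyrosine breakdown, where Gstz1 acts, none passed limma's test or had an unadjusted p under 0.05 in either direction. Fah, which follows Gstz1 in that pathway, gave 0.29, and Tat and Hgd, both below the array median on all arrays, gave -0.23 and 0.17.

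In most members the same control tongue was lowest. Control 2 was the lowest of the 3 control tongues for 8 of the 10 genes (all but Gstm1 and Gstm4), against 32.5% of all genes. The highest treated tongue was 4NQO 2 for 5 of 10, against 30.4% of all genes. Control 2 is part of the control means, so its low values also enter the differences given above. Over the 6 arrays, which share the group difference, Pearson's r was 0.93 between Gsto1 and Gstm1, 0.95 between Gsto1 and Gstm6, 0.97 between Gsto1 and Gstm7 and 0.85 between Gstm1 and Gstm6. After the group means were removed it was 0.55, 0.95, 0.95 and 0.53 in that order of pairs. All of these pairs are among the genes whose groups did not overlap. In other pairs, with group means removed, r was 0.97 between Gsto1 and Gstm3, -0.36 between Gstm1 and Gstm2 and -0.90 between Gstm1 and Gstm4. The gene whose values over the 6 arrays were most like those of Gsto1 was Nudt5, a hydrolase of ADP-ribose and oxidised nucleotides (Pearson's r = 0.996), with 8.23, 8.40 and 8.18 in 4NQO-treated tongue, against 7.42, 7.07 and 7.42 in control tongue. H2-D1, a class I histocompatibility antigen (0.994), and Cdc23, a subunit of the anaphase-promoting complex (0.994), came next. The correlations of Nudt5, H2-D1 and Cdc23 with Gsto1 describe 6 arrays and were the highest among all genes tested.

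Other genes that make, join, export or break down glutathione conjugates are set beside the family by their counts. Of 8 measured alpha, pi, kappa and microsomal transferases, 2 rose by limma (Gsta4 and Gsta3, adjusted p = 0.0134 and 0.0310), none fell, and the median log2 fold change was 0.70, against 0.12 for the 10 genes described here. Gsta4, which conjugates lipid aldehydes such as 4-hydroxynonenal, had 12.95, 12.81 and 12.65 in 4NQO-treated tongue, against 11.70, 11.63 and 11.53 in control tongue, with no overlap. Gstp1, the pi class enzyme, had a log2 fold change of 0.56 and Gsta2 one of 1.42 (adjusted p = 0.0703 and 0.0523 from limma). Of 12 genes of glutathione supply and recycling, 3 rose (Slc7a11, Gclc and Gpx2) and none fell, with a median of 0.66. Gclc, which joins glutamate to cysteine, gave 2.19, and Gss, which adds glycine to complete glutathione, 0.87 (adjusted p = 0.0116 and 0.0992 from limma). Of 15 genes of export and mercapturate formation none passed, with a median of 0.11. Its 3 genes with the smallest p were the efflux pumps Abcc4 at 0.85, Abcc3 at 1.11 and Abcc1 at 0.43 (adjusted p between 0.269 and 0.398 from limma).
Of 13 genes of NRF2, its partners and its other targets, 4 rose (Nqo1, Cbr3, Akr1b8 and Ptgr1) and none fell, with a median of 0.17. Of 9 receptors for foreign compounds and their P450 targets none passed, with a median of -0.16. Among them Ahr, the aryl hydrocarbon receptor, gave 0.55, Cyp2b10, a target of the receptor CAR, 0.43, and Cyp1a1, a target of Ahr, -0.88 (adjusted p between 0.403 and 0.490 from limma). Cyp1a1 was above the array median on 2 of 6 arrays only, with control values of 6.10, 4.95 and 4.42 and overlapping groups. The lists were compared with the family by counts and medians only, so no difference between them and the family was tested. Without control 2 or without 4NQO 2, no gene of the alpha, glutathione supply or NRF2 list passed. The numbers passing were 0, 1 and 1 without 4NQO 1, 1, 3 and 1 without control 1, and 1, 3 and 3 without control 3. They were 3, 3 and 4 without 4NQO 3, and 1, 0 and 1 without control 3 and 4NQO 2 together.

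**Figure D4:**
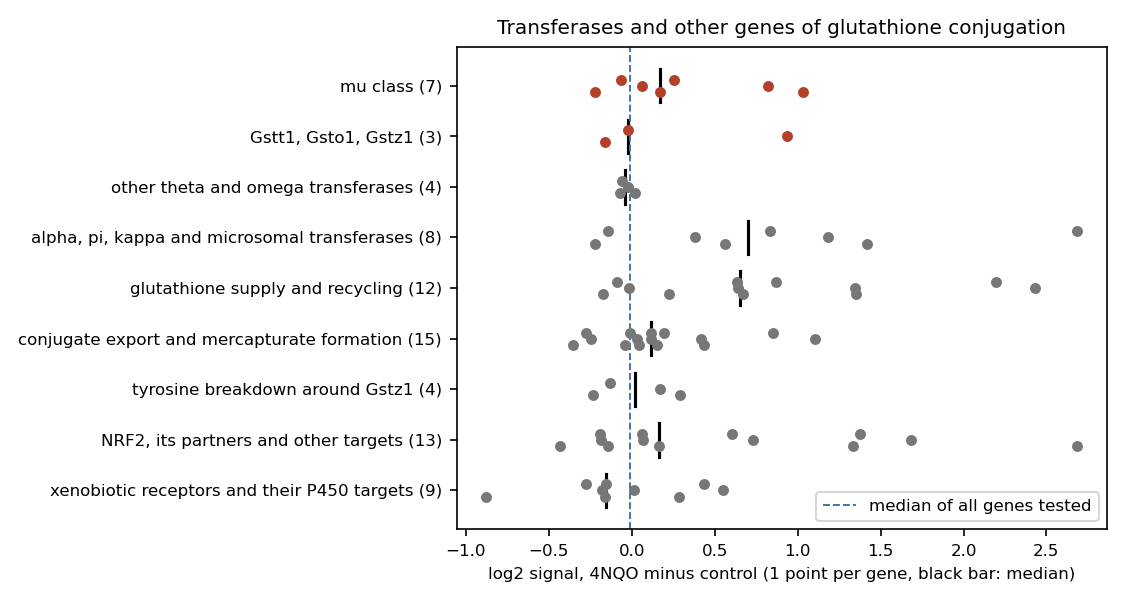
Log2 signal of 4NQO-treated minus control tongue (horizontal axis) with 1 point per gene, black bars for medians and a dashed line for the median of all genes tested, the 10 transferases in red and other lists in grey. Most of the 10 genes lie near 0, with Gsto1, Gstm1 and Gstm6 to the right, while the medians of the alpha, pi, kappa and microsomal list and of the glutathione supply list are 0.70 and 0.66.

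Skeletal muscle and keratinocyte markers were present, and no marker gene of any cell type passed limma's test at an adjusted p under 0.05. Over 4 taste cell markers mean log2 levels were 3.9 to 4.2 in 4NQO-treated and 4.1 to 4.2 in control tongue, below the array medians. Over 5 adipocyte markers they were 4.8 to 7.1 in 4NQO-treated and 5.1 to 6.9 in control tongue. Over 6 salivary gland markers they were 3.3 to 5.8 and 3.4 to 5.1, so both lists varied within each group. Mean log2 levels over 12 skeletal muscle markers were 11.60 to 12.36 in 4NQO-treated and 11.73 to 12.59 in control tongue, and those of 7 basal keratinocyte markers were 10.73 to 11.18 in 4NQO-treated and 10.65 to 11.13 in control tongue. Over 6 suprabasal keratinocyte markers they were 11.59 to 11.70 in 4NQO-treated and 11.00 to 11.66 in control tongue. Of these, Krt16 (log2 fold change 0.78) and Krt6a (0.34), keratins of activated epithelium, had higher values in every treated than in any control tongue. Groups overlapped for Krt4 (-0.20), Krt13 (0.09), Ivl (0.05) and Sprr1a (0.65). Mean log2 levels over 3 liver genes were 3.71 to 3.91 in 4NQO-treated and 3.77 to 3.83 in control tongue, below the array medians. All 5 measured proliferation markers had higher values in every treated than in any control tongue, against 9.59% of all genes. Their mean levels were 8.12 to 8.72 in 4NQO-treated and 6.84 to 7.73 in control tongue. At an unadjusted p below 0.05 by limma, 2 of 10 immune markers were higher, against 6.68% of all genes, and 1 was lower, against 3.74%. Fibroblast markers had a median of -0.35, with 9.64 to 10.23 in 4NQO-treated and 9.96 to 10.71 in control tongue. Of 7 fibroblast markers, 2 had lower values in every treated than in any control tongue, against 7.18% of all genes. The part of these lists in the values of the transferases was not tested. The 3′ minus 5′ signal of the Gapdh control probe sets, a sign of RNA integrity, was 1.07 in 4NQO 2 and 1.67 in control 3, against 0.33 and 0.47 in the other 4NQO-treated and 0.086 and 0.20 in the other control tongues. The same measure for actin did not set these arrays apart, with 1.12, 0.95 and 0.55 in the 4NQO-treated and 0.75, 0.83 and 1.01 in the control tongues. Without 4NQO 2 and control 3 Gsto1 gave 0.92, Gstm1 0.90 and Gstm6 1.11, about as large as with them, and the adjusted p was 0.245, 0.182 and 0.434 from limma.

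**Figure D5:**
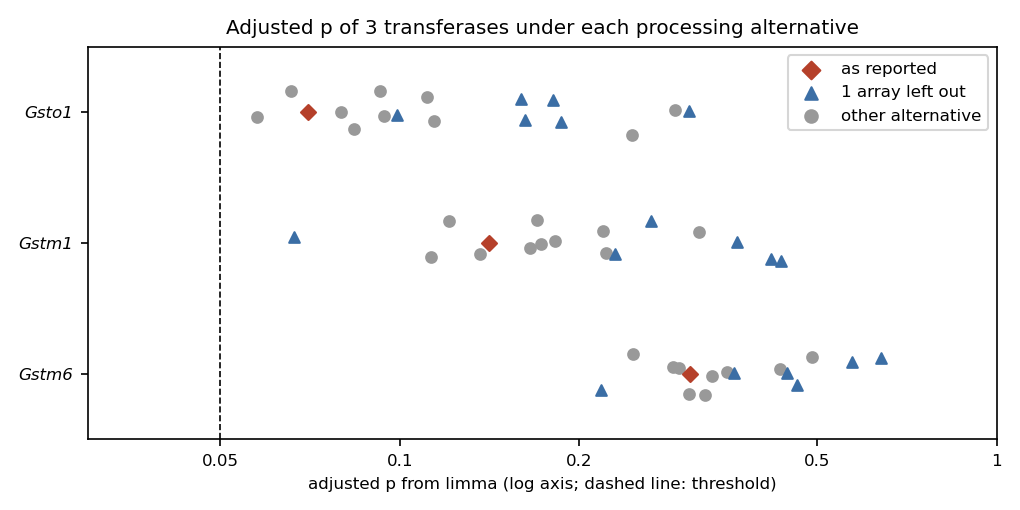
Adjusted p from limma (horizontal axis, log scale, dashed line at the threshold of 0.05) of Gsto1, Gstm1 and Gstm6, with red diamonds for the values given above, blue triangles with 1 array left out and grey circles for other alternatives. No point lies below the threshold, and the lowest is 0.0578 for Gsto1.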

How the data were processed

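RNA of 6 mouse tongues was hybridized to Affymetrix whole-genome mouse arrays. The values deposited by the authors are log2 signals, 1 per probe set and array, made with Bioconductor packages in R. Their normalization method was not given in the sources used here. Of 45101 probe sets, 34945 were annotated to 1 gene by the platform table, and symbols were checked by Entrez ID against GRCm38.p6. A gene was represented by its probe set of highest mean log2 over the 6 arrays, which left 18193 genes for testing, dim ones included. limma 3.58.1 in R 4.3.3 (lmFit, eBayes with an intensity trend) was used, with Benjamini-Hochberg adjustment over all genes and a threshold of 0.05. Fold changes are 4NQO minus control on the log2 scale. SAM was re-implemented with the 20 possible label permutations and a median of fewer than 1 false positive. The limma and SAM code was tested on simulated data. Array median signals lay between 4.45 and 4.60. The number of arrays limits the precision, and limma's p-values set the group difference against the spread between these tongues, moderated over all genes.

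The members, lists and alternatives were chosen with earlier results of these data known. The genes named are the 10 members, the listed genes past the threshold with up to 3 more of the smallest p per list, the 3 genes most correlated with the member of highest mean, which was also that of smallest p, and the measured genes among the 5 nearest on each side of the mu cluster. Gstt3 and the suprabasal markers Krt16, Krt6a, Krt4, Krt13, Ivl and Sprr1a were named outside this rule, after their values were seen. Sequences are from RefSeq tables of GRCm38.p6, in which all 10 genes were found.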

Additional observations from a re-analysis of the deposited data

How the results depend on the processing

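Under the 16 alternatives run, Gsto1 and Gstm1 kept a positive log2 fold change and an adjusted p above 0.05 from limma, as did Gstm6 under 15, since it is lost without dim genes. Gsto1 ranged from 0.78 to 1.69 (adjusted p 0.0578 to 0.305), Gstm1 from 0.72 to 1.00 (0.0665 to 0.434) and Gstm6 from 0.67 to 1.23 (0.218 to 0.639). The highest value of Gsto1 came from its probe set of highest variance. Members higher numbered 1 at an adjusted p under 0.1 (Gsto1) and 3 at an unadjusted p under 0.05, and 0 otherwise, and none was lower. The sign of small differences turned: with centred arrays Gstm2 was 0.012 and Gstt1 0.052, and without control 3 and 4NQO 2 together Gstm4 was -0.042 and Gstt1 0.11. With 1 array left out Gstm2 ranged from -0.16 to 0.057 (without control 1), Gstm3 from -0.020 (without control 2) to 0.29, Gstm4 from -0.12 (without control 3) to 0.23 and Gstt1 from -0.25 to 0.20 (without 4NQO 1). The members' median was -0.02 without dim genes, which leaves 7 members, and 0.022 to 0.26 with 1 array left out. Causes were not tested. Deviations of same-numbered tongues correlated at 0.29, -0.51 and 0.048, so the numbers were not taken as pairs. With the replicate block, Gsto1 had an adjusted p of 0.289 and 2 of all genes were higher and 0 lower, none in the alpha, glutathione supply or NRF2 list. The alpha list had 4 higher with centred arrays, and 1 without dim genes or with the mean of all probe sets.

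Over all genes, 23 were higher and 1 lower. The counts were 63 and 2 with centred arrays, 43 and 4 with robust eBayes, 83 and 0 with SAM, 4 and 0 without control 3 and 4NQO 2, 103 and 8 at an adjusted p under 0.1 and 1216 and 681 at an unadjusted p under 0.05. Higher genes numbered 12 without dim genes, 15 with the mean of all probe sets and 14 with the probe set of highest variance, and lower genes 2 without the trend. Leaving out 1 array gave 0 to 25 higher (0 without control 2, 1 without 4NQO 2) and 0 to 2 lower.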
